A study of Drosophila melanogaster with 2 samples.

Results

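Divergent promoters are places where 2 protein-coding genes start back to back, the minus-strand gene at the lower coordinate and the plus-strand gene at the higher, so that a short stretch of DNA serves both. The summits described here are those of the nuclear receptor Hr78 at such promoters in fly embryos. A summit was taken when it lay within 500 bp of a start site of a minus-strand gene and within 500 bp of a start site of a plus-strand gene, with the start sites head to head and at most 1000 bp apart. Of the 5723 summits in the optimal peak list, 317 met this rule (5.54%, 95% exact interval 4.96 to 6.16). They made up 16.3% of the 1948 summits within 500 bp of any protein-coding start site. Of the 317, 285 were the highest summit of their peak region.

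Binding was mapped by ChIP-seq, in which chromatin is sheared, precipitated with an antibody and sequenced. The material was 2 biological replicates, numbered 1 and 3, of the whole embryo of Drosophila melanogaster, male and female together, collected at 8 to 16 h of development. The line is transgenic and stably produces Hr78 tagged C-terminally with eGFP. The antibody was directed against GFP. Both replicates came from the same line and formed 1 group with no untagged or mutant comparison, whole embryos mix many cell types, and which promoter drives the tagged receptor is not stated in the labels. The lists carry no numbers of reads, so sequencing depth is unknown, and every interval below covers only the counting of regions, genes or loci.

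Hr78 is the fly relative of the vertebrate testicular orphan receptors. Nuclear receptors of this family bind hexamers related to AGGTCA, most often as a direct repeat. Head-to-head gene pairs are common in the compact fly genome, many of them encode housekeeping functions such as translation, mitochondrial metabolism and DNA repair, and their shared promoters often carry sites for the boundary and promoter factors BEAF-32 and DREF, which read CGATA and TATCGATA.

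Stretches from 7 of these promoters show the range of sequences found under the summits. The first 2 hold the receptor hexamer close to the summit, with AGGTCA in capitals and 20 bp on each side. They come from 2L:6723709-6723754, where the summit is base 34, and from 2L:8528958-8529003, where it is base 44. In the homer and Liprin-alpha sequence the first base of the hexamer is also the last base of a copy of CGATA.
homer/Liprin-alpha: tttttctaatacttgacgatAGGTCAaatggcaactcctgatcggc
lmgB/CG17834: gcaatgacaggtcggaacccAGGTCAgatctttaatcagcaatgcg

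The other 5 are the whole exon-free gaps between the start sites, shown because the summit lies inside them and because they span the base compositions described below. Capitals mark CGATA and TATAAA on either strand, so that CGATA also appears as TATCG. All are written 5' to 3' on the plus strand of dm6, so the minus-strand gene is on the left. They are 3R:30022649-30022841 (summit at base 107), X:17844705-17844948 (base 116), 3R:15229409-15229664 (base 134), 2L:8376798-8377034 (base 82) and X:1877271-1877316 (base 43).
RpS28a/Axn: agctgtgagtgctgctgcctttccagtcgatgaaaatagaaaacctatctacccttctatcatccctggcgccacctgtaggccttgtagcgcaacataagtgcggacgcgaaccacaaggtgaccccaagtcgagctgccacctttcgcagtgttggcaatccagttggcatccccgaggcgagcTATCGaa
CG8142/Ucp4A: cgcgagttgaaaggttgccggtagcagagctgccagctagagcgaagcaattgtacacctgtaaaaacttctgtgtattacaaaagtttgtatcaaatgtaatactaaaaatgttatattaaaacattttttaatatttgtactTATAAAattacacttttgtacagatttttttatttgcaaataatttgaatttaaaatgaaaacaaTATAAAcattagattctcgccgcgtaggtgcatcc
Art3/mRpS10: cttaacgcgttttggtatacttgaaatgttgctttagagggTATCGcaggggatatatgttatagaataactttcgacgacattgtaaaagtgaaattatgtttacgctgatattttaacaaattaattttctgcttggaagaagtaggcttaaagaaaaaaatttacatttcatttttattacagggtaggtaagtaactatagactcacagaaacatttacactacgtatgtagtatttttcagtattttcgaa
CG13390/CG17294: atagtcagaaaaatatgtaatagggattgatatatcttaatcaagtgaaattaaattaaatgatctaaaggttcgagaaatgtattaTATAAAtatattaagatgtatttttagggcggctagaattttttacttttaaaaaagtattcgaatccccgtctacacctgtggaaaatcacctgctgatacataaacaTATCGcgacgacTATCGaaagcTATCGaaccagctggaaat
CG14817/CG14805: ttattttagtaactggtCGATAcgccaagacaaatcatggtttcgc

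The strongest divergent-promoter summit lay between homer and Liprin-alpha. Both genes encode scaffold proteins of the synapse. The summit, at 2L:6723742, was 161 bp from the Liprin-alpha start site and 383 bp from that of homer. Its signal, the peak caller's value against a control, was 10035 in the pooled data, and the peaks that held it had signals of 6163 in replicate 1 and 3889 in replicate 3. It was rank 5 of the optimal list, and rank 4 and rank 5 in the lists of replicates 1 and 3. The scale of the signal differs between lists, so ranks rather than signals compare the replicates.

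The next were at prd1 and HisCl1, which encodes a histamine-gated chloride channel, and at qless and mRpL32. The prd1 summit, at 3R:11786778, was 4 bp from the start site and had a signal of 6093, with ranks of 10 in replicate 1 and 14 in replicate 3. The qless gene encodes a synthase of the coenzyme Q side chain, and mRpL32 a protein of the mitochondrial ribosome. Their summit, at 3R:31252395, lay inside qless, 213 bp from its start site, with a signal of 5789 and replicate ranks of 15 and 12.

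Lipid droplet genes and translation genes were also among the 25 highest. The summit beside sturkopf, a lipid droplet protein gene that faces the ubiquitin ligase gene Herc4, was at 3L:1313247 with a signal of 4786. Its ranks of 11 in replicate 1 and 64 in replicate 3 were farther apart than those of the homer, prd1 and qless summits. At RpS28a, a cytosolic ribosomal protein gene, and Axn, the fly Axin of the Wnt pathway, a signal of 3908 was measured at 3R:30022755, with replicate ranks of 33 and 35. Fitm, which encodes a fat storage-inducing protein, faces AlaRS-m, the mitochondrial alanyl-tRNA synthetase gene, across 35 bp. Their summit lay inside Fitm, 118 bp from its start site, and had signal 3297, ranking 48 in replicate 1 and 53 in replicate 3.

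Genes of mitochondria and of translation also stood further down this list of 25. Elp6, an Elongator subunit gene, faced Dic1, a mitochondrial dicarboxylate carrier gene, at a summit with a signal of 3133. CG8142 faced the uncoupling protein gene Ucp4A with a signal of 2609. The arginine methyltransferase gene Art3 faced mRpS10 with 2133, and mRpS23 faced CenG1A with 1782. The aspartyl-tRNA synthetase gene AspRS, opposite Lfg, had 1976, and eIF4EHP, which encodes a cap-binding translational repressor, had 1679 opposite CG18428.

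Taf5, a TFIID subunit gene, faced Pex6, which encodes a peroxisomal ATPase, with a signal of 1792 at 2R:10879947. Chro, the Chromator gene, faced Ssl1, a TFIIH subunit gene, with 1738, and the splicing factor gene RnpS1 faced mura with 3141. The remaining pairs among the 25 were CG7182 and GAPcenA (a Rab GTPase-activating protein gene, signal 4933), rux and MCTS1 (3018), CG2004 and CG1785 (2675), Surf6 and RhoGAP92B (2324), Shmt (serine hydroxymethyltransferase) and CG3726 (2098), CG11309 and CG7632 (2043), CG1492 and regucalcin (1949), CG13390 and CG17294 (1893), Fbw5 and CG9147 (1810), and CG14817 and CG14805 (1687).

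At rux, which encodes a cyclin A inhibitor, and MCTS1, a translation reinitiation gene, the replicate values belong to a neighbour. The summit that met the rule, at X:6037590, had a signal of 3018 in the pooled data. It was not the highest summit of its peak region, so the tests over 285 regions leave it out. The replicate peaks that held it had their own summits 214 and 271 bp away, and their rank of 2 in each replicate is therefore not a value of the summit at X:6037590.

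Over all 317 summits the signal ran from 271.7 to 10035, with a median of 464. A replicate 1 peak held 304 of the summits and a replicate 3 peak held 308. For 238 of 317 (75.1%, exact interval 69.9 to 79.7) the peak was among the 5723 highest in both replicates, against 1160 of 1450 (80.0%, 77.9 to 82.03) for summits at single promoters. A single promoter here is 1 whose start sites within 500 bp of the summit are all on the same strand and belong to no head-to-head pair. Only 5 divergent-promoter summits were among the highest in neither replicate, while 40 were so in replicate 1 alone and 34 in replicate 3 alone.

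**Figure D1:**
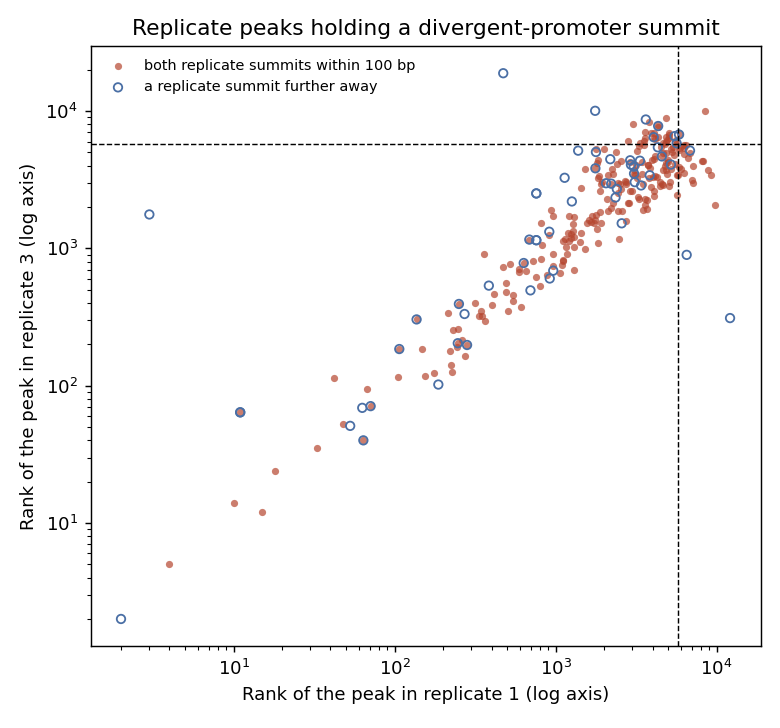
Rank of the replicate 1 peak (x, log axis) against rank of the replicate 3 peak (y, log axis) that hold each divergent-promoter summit, for the 296 summits held in both replicates. Filled points are 237 summits with both replicate summits within 100 bp, open points 59 with a replicate summit further away, and dashed lines mark rank 5723; most points lie near the diagonal, and the open point at rank 2 in both replicates is rux/MCTS1.

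No difference in signal between divergent and single promoters passed the test under the 500 bp rule. With the highest summit of each region, the median signal was 462.9 over 285 divergent-promoter regions and 470.3 over 1253 single-promoter regions. The share above the median of the whole list, 440.5, was 53.7% at divergent promoters and 53.95% at single promoters, a difference of -0.27 percentage points (95% interval -6.68 to 6.07, two-sided Fisher's exact p = 0.948). In replicate 1 the shares above the replicate's median were 49.5% at divergent promoters and 49.2% at single promoters (difference 0.26 points, interval -6.25 to 6.78, exact p = 0.947). In replicate 3 they were 45.5% at divergent promoters and 50.3% at single promoters (difference -4.80 points, interval -11.2 to 1.72, exact p = 0.163). With start-site windows of 250 bp in place of 500 bp, the replicate 1 difference was 9.37 points and passed the test (exact p = 0.0343), while those of the optimal list and replicate 3 did not.

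Summits concentrated in the gap between the start sites. Of the 317, 214 (67.5%, exact interval 62.1 to 72.6) lay between the start sites, 49 inside the minus-strand gene and 54 inside the plus-strand gene. In the stretches of the bound pairs that lie within 500 bp of both start sites, there were 2.62 summits per kb between the start sites and 0.848 per kb outside them. Where several start sites fitted, the pair nearest to the summit was taken, which favours pairs on either side of it, and with 1 start site per gene the share between was 59.6%. Of the 214 summits in the gap, 140 (65.4%) were nearer to the midpoint than to either start site. The rule and the choice of pair favour the middle here too. In gaps over 500 bp only the central part lies within 500 bp of both start sites. No expected share was computed, so 65.4% is a description only. Of all 317, 158 (49.8%, 44.2 to 55.5) were nearer to the minus-strand start site and the others to the plus-strand start site.

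The nearer start site was a median of 101 bp away, with quartiles of 57 and 150 bp, and 157 of 317 summits were within 100 bp of it. The farther start site was a median of 240 bp away. An annotated exon covered 113 summits (35.65%), prd1, qless and GAPcenA among them. The gap itself had a median of 290 bp, from 16 to 923 bp.

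**Figure D2:**
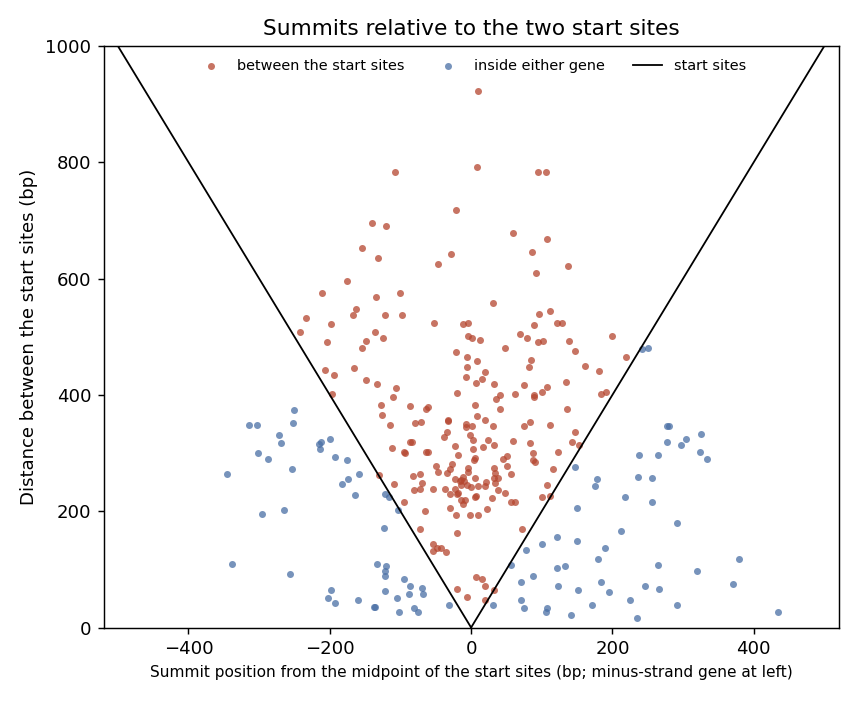
Position of each of the 317 summits relative to the midpoint of its start sites (x, bp, minus-strand gene at left) against the distance between the start sites (y, bp). Black lines are the start sites; the 214 red points between the lines lie in the gap, and the 103 blue points lie inside either gene.

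Most gene pairs had 1 summit. Of 282 pairs, 250 had 1, 30 had 2, 1 had 3 (sturkopf/Herc4) and 1 had 4 (p38a/CG6178), the last named after its value was seen. Of the 35 sets of neighbouring summits in these pairs, 32 lay 199 to 250 bp apart, with a median of 203.5 bp. In 32 of 32 of these the lower-coordinate summit was the stronger, with a median signal ratio of 1.55. Of the others, the lower-coordinate summit was the stronger at p38a/CG6178 (328 bp apart) and the higher-coordinate summit at Gmd/CG3792 (289 bp) and yin/CG2930 (3531 bp). At sturkopf/Herc4 the 3 signals were 4786, 3926 and 1019 in order of coordinate. For this reason all tests over summits used the highest summit of each region. The order of neighbouring summits was not counted outside divergent promoters, so it cannot be called particular to them.

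Summits on either side of the limits of the rule had the following values. Just inside the 500 bp limit were the summits of Jheh3/CG43069 (500 bp from the farther start site, signal 447.6) and Got2/Npc2a (499 bp, 710.6). Just outside were Nepl19/Nepl20 (504 bp, 371) and CG5149/gudu (506 bp, 1094). Just inside the limit on the gap were Mal-A3/Mal-A4 (923 bp apart, signal 273) and CG7966/pic (792 bp, 461.7). Just outside it were 2 summits of CG5805/Ets96B, whose start sites are 1006 bp apart, with signals of 570.6 and 804.4. They lay 690 and 894 bp from the farther start site, so they were outside the 500 bp limit as well.

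Genes with a head-to-head partner were bound more often than genes without. Over all 13945 protein-coding genes, 1818 (13.0%) had a summit within 500 bp of a start site. On the plus strand this held for 408 of 2520 genes with a partner (16.2%) and for 488 of 4425 without (11.03%), a difference of 5.16 points (95% interval 3.48 to 6.90, two-sided Fisher's exact p = 1.175e-09). On the minus strand it held for 428 of 2532 genes with a partner (16.9%) and 494 of 4468 without (11.1%), a difference of 5.85 points (4.15 to 7.598, exact p = 8.63e-12). The 2 tests share loci, since the genes of a pair can share a summit. Of the bound genes with a partner, 291 on each strand were at a divergent-promoter summit, and the others had a summit that did not meet the rule.

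The difference passed the test among genes with 1 annotated start site, and not among those with more. With 1 start site, 11.2% of plus-strand genes with a partner were bound and 6.65% of those without (exact p = 3.217e-08), and on the minus strand 11.5% with and 6.46% without (exact p = 1.205e-09). With 2 start sites the plus-strand shares were 21.99% with a partner and 18.7% without (exact p = 0.162), and the minus-strand shares 20.5% with and 19.4% without (exact p = 0.672). With 3 or more they were 39.1% with and 39.2% without on the plus strand (exact p = 1), and 47.7% with and 39.8% without on the minus strand (exact p = 0.0610). These strata were chosen after the data were seen, and the change of the difference between strata was not tested. The window of a gene with a partner also holds the partner's start site, and its part in the difference was not tested.

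**Figure D3:**
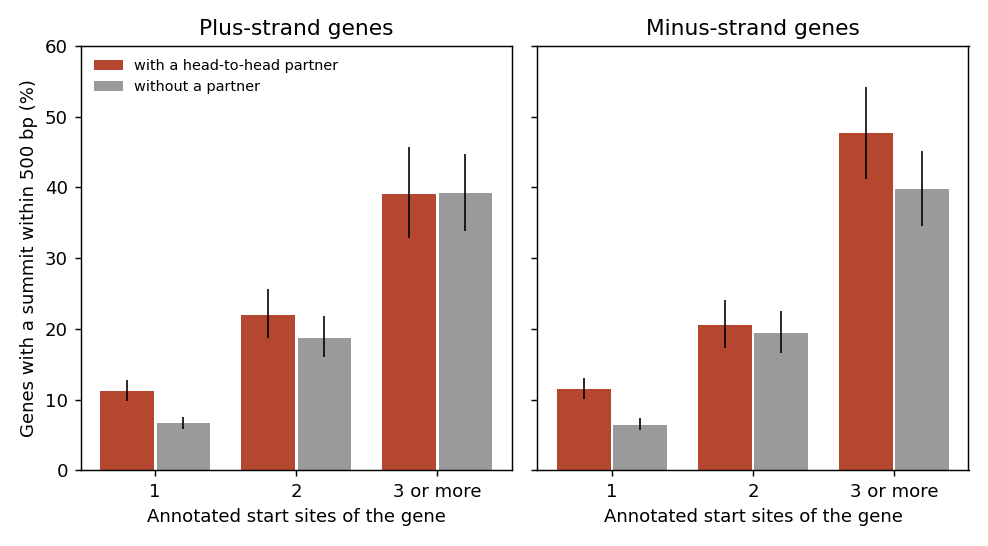
Share of genes with a summit within 500 bp of a start site (y, percent) by the number of annotated start sites (x), for plus-strand genes (left panel) and minus-strand genes (right panel). Red bars are genes with a head-to-head partner and grey bars genes without, with 95% exact intervals; at 1 start site the bars stand at 11.2% with and 6.65% without a partner on the plus strand, and at 3 or more on the minus strand at 47.7% with and 39.8% without, where the intervals overlap.

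A minority of divergent promoters were bound. The annotation held 2667 head-to-head gene pairs, which form 2412 separate loci, and 282 of these had a summit that met the rule (11.7%, exact interval 10.4 to 13.04). In the longer pooled list of 30000 peaks, from which the optimal list was drawn, 716 loci had one (29.7%). The 282 bound loci involved 582 genes, or 4.17% of all protein-coding genes and 11.5% of the 5052 with a partner.

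The length of the gap enters the rule, because the stretch within 500 bp of both start sites shrinks as they move apart, so the gaps of bound loci were partly set by it. The gap was at most 300 bp in 172 of 282 bound loci (60.99%) and in 1067 of 2130 unbound loci (50.1%, difference 10.9 points, interval 4.72 to 16.8, two-sided Fisher's exact p = 0.000606), with medians of 258 bp when bound and 299.5 bp when unbound. The difference did not hold under the 2 other settings that loosen this tie: with windows of 1000 bp it was 1.92 points (exact p = 0.513), and among gaps of at most 500 bp it was -0.20 points (exact p = 0.943). By gap length, 15.02% of loci were bound at up to 100 bp, 9.39% at 100 to 200 bp, 15.9% at 200 to 300 bp, 14.5% at 300 to 400 bp and 13.4% at 400 to 500 bp, and the intervals of neighbouring classes overlapped. Above 500 bp the share was 5.6% up to 750 bp and 2.06% up to 1000 bp.

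**Figure D4:**
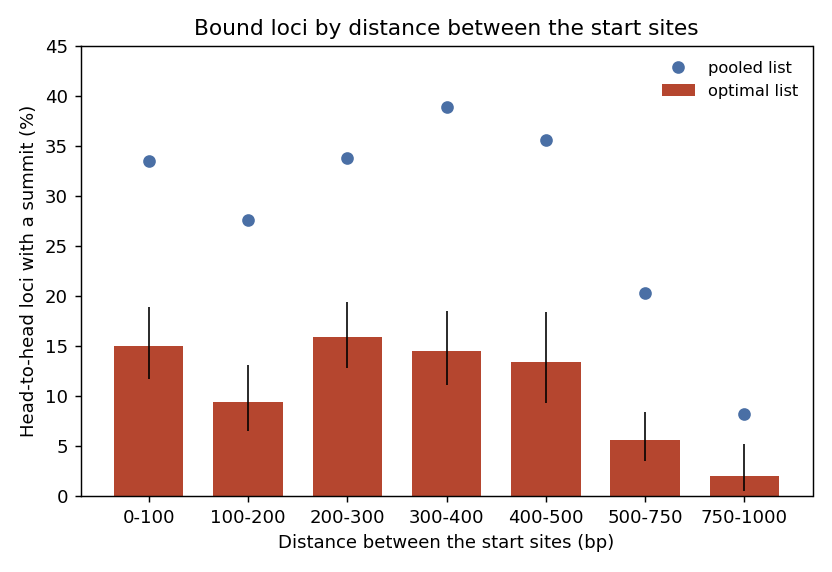
Share of head-to-head loci with a summit (y, percent) by the distance between their start sites (x, bp). Bars are the optimal list with 95% exact intervals and points the pooled list; the bars stay between 9.39% and 15.9% up to 500 bp and drop to 2.06% at 750 to 1000 bp.

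On the X chromosome 33 of 381 divergent loci were bound (8.66%), against 249 of 2020 on the 4 large autosomal arms (12.3%, two-sided Fisher's exact p = 0.0456). This test was added after the data were seen and is not adjusted. The arm 3L had the highest share, 15.1% (exact interval 12.02 to 18.7), and 2L, 2R and 3R had 11.2%, 12.2% and 11.1%. None of the 11 loci on chromosome 4 was bound (upper limit 28.5%).

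The DNA under these summits was rich in A and T. The median GC content of the 101 bp around the summit was 32.7% at divergent promoters and 42.6% at single promoters. At or under the median of the whole list, 42.6%, were 206 of 285 divergent-promoter windows (72.3%) and 633 of 1253 single-promoter windows (50.5%), a difference of 21.8 points (interval 15.6 to 27.4, two-sided Fisher's exact p = 1.868e-11). Windows 500 bp away from the divergent-promoter summits, toward higher coordinates, had a median of 49.5%. The midpoints of bound and of unbound divergent loci had the same median, 31.7%. The gaps printed above span this range, with windows of 17.8% GC at CG8142/Ucp4A, 21.8% at CG13390/CG17294, 22.8% at Art3/mRpS10, 39.6% at CG14817/CG14805 and 58.4% at RpS28a/Axn.

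Motifs were searched on both strands of these 101-bp windows. Of 21 motifs, 1 (4.76%) differed between divergent and single promoters after Benjamini-Hochberg adjustment of Fisher's exact tests. TATAAA, the letters used here for the TATA box, was counted without regard to its place relative to a start site. It was in 69 of 285 divergent-promoter windows (24.2%) and 174 of 1253 single-promoter windows (13.9%, difference 10.3 points, interval 5.29 to 15.9, exact adjusted p = 0.000939). It was in 14.1% of all 4939 optimal regions. The midpoints of divergent loci held it in 24.1% of bound and 23.6% of unbound loci. Split at a GC content of 32.7%, the shares at or under it were 39.3% at divergent and 33.5% at single promoters (exact p = 0.222), and above it 7.41% at divergent and 6.13% at single promoters (exact p = 0.568). The count of motifs called was 6 without replicate 1 and 8 without replicate 3, and TATAAA was among them each time. Among summits above the median signal the TATAAA difference was 6.58 points and was not called (exact adjusted p = 0.355). Within the divergent promoters, TATAAA was in 60 of 197 windows of summits between the start sites (30.5%) and 9 of 88 of those outside (10.2%, exact adjusted p = 0.00222 over 14 comparisons), with median GC contents of 28.7% between and 42.1% outside.

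Against flanks 500 bp toward higher coordinates, 4 of 21 motifs (19.0%) were more frequent at the summit (exact McNemar tests, Benjamini-Hochberg adjusted). By the rule, each such flank is centred at or past the start site of the plus-strand gene. A flank toward lower coordinates is likewise at or past that of the minus-strand gene. The test therefore also sets promoter against gene sequence, with median GC contents of 32.7% at summits and 49.5% in the higher-coordinate flanks. The part of binding in these differences was not tested. TATAAA was in 69 summit windows and 26 flanks of 285 (exact adjusted p = 5.104e-05). CGATA, the BEAF-32 motif, was in 53 summit windows and 23 flanks (exact adjusted p = 0.00376), and its longer form TATCGATA, the DREF motif, in 7 summit windows and 1 flank (exact adjusted p = 0.211). The core promoter element Ohler 7, spelled CAGCNCTA, CAGCNCTG, CATCNCTA or CATCNCTG, was in 21 summit windows and 5 flanks (exact adjusted p = 0.0175). The GATA factor motif, which is GATA preceded by A or T and followed by A or G, was in 57 summit windows and 31 flanks (exact adjusted p = 0.0228). The GATA and CGATA motifs exclude each other at the same GATA core, and every TATCGATA holds 2 copies of CGATA. In all optimal regions CGATA was in 14.3%, TATCGATA in 0.628%, Ohler 7 in 3.52% and the GATA motif in 24.6%. At the midpoints of bound and of unbound loci CGATA was in 20.9% of bound and 24.5% of unbound, TATCGATA in 3.55% of bound and 5.02% of unbound, Ohler 7 in 6.74% of bound and 7.37% of unbound, and the GATA motif in 22.3% of bound and 21.2% of unbound. With the flank taken toward lower coordinates, 2 motifs passed: TATAAA, in 69 summit windows and 17 flanks (exact adjusted p = 6.587e-08), and GCCAT, the Pho core, which was less frequent at the summit, in 34 summit windows and 69 flanks (exact adjusted p = 0.00196). Without replicate 3, 2 motifs passed against the higher-coordinate flank, TATAAA and CGATA, and without replicate 1 the same 4 as above did.

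The receptor's own hexamer did not pass the test against the flanks at divergent promoters. Of 285 summit windows, 13 held AGGTCA (4.56%, exact interval 2.45 to 7.67), as did 10 of 285 flanks (3.51%, difference 1.05 points, interval -2.34 to 4.52, exact McNemar adjusted p = 0.898). At single promoters the comparison with flanks gave 101 summit windows and 31 flanks of 1253 (8.06% and 2.47%, exact McNemar adjusted p = 1.947e-09). Those flanks had a median GC content of 41.6%, against 49.5% for the flanks of divergent promoters. The comparisons thus differ in background and in number of regions. Between divergent and single promoters the share of summit windows with AGGTCA differed by -3.50 points (interval -5.99 to -0.12, Fisher's exact p = 0.0445, adjusted 0.198). The adjusted test passed without replicate 3 (-4.12 points, exact adjusted p = 0.0444) but not without replicate 1 (-3.19 points, exact adjusted p = 0.107). It also passed with windows of 100 bp on each side of the summit (-5.31 points, exact adjusted p = 0.0365), and the sign turned with start-site windows of 1000 bp (1.91 points, exact adjusted p = 0.439). With those 1000 bp windows 45 of 438 summits and 13 of 438 flanks held AGGTCA (exact McNemar adjusted p = 0.000219), a difference that passed the test.

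Looser forms gave a similar order. The degenerate hexamer, which is AGGTCA with G also allowed at the first base and T at the third, was in 61 divergent-promoter windows (21.4%) and 336 single-promoter windows (26.8%, exact adjusted p = 0.214), and in 38 of the 285 flanks of divergent promoters (exact McNemar adjusted p = 0.0640). With start-site windows of 1000 bp, 122 of 438 summits and 49 of 438 flanks held the degenerate hexamer, which passed the test (exact McNemar adjusted p = 4.77e-08). With windows of 250 bp, 29 of 162 summits and 22 of 162 flanks did, which did not pass (exact McNemar adjusted p = 0.866). The direct repeat of this hexamer with a 1-base spacer was in 0 of 285 divergent-promoter windows (exact upper limit 1.29%) and 7 of 1253 single-promoter windows. All optimal regions held AGGTCA in 10.8% and the degenerate hexamer in 32.05%, and summits away from start sites held AGGTCA in 12.02%. In windows above 32.7% GC, AGGTCA was in 6.67% at divergent promoters and 10.02% at single promoters (exact p = 0.272), and in the other windows in 2.67% at divergent and 3.10% at single promoters (exact p = 1).

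**Figure D5:**
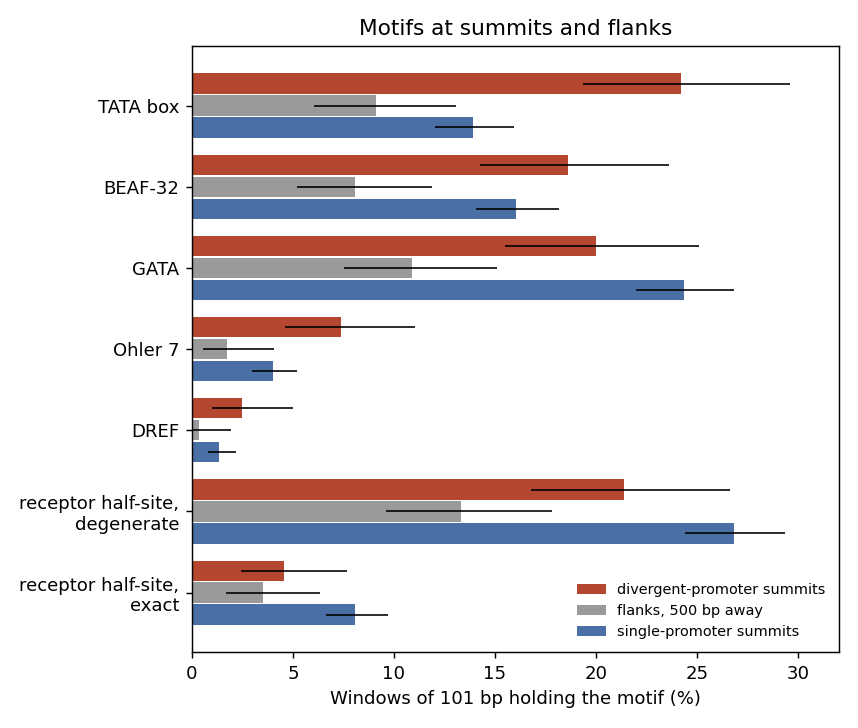
Share of 101-bp windows that hold each motif (x, percent), for 285 divergent-promoter summits (red), their flanks 500 bp toward higher coordinates (grey) and 1253 single-promoter summits (blue), with 95% exact intervals. TATAAA, labelled TATA box, stands at 24.2% in red against 9.12% in grey and 13.9% in blue, while the exact receptor hexamer at the bottom is at 4.56% in red and 3.51% in grey.

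The 13 summits with AGGTCA included the highest of all. The 5 of highest signal were homer/Liprin-alpha, with the hexamer centred 10.5 bp from the summit, prd1/HisCl1 (5.5 bp), Vta1/CG7970 (25.5 bp, signal 1429), lmgB/CG17834 (20.5 bp, 883.8) and slmo/IPIP (0.5 bp, 848). The other 8 had signals from 305.7 to 811.4. Among divergent-promoter summits the share with AGGTCA was 4.93% in those of higher signal (7 of 142) and 4.196% in the rest (6 of 143, exact p = 0.785). Between the start sites themselves, AGGTCA was in 19 of 282 bound loci (6.74%) and 151 of 2130 unbound loci (7.09%, difference -0.35 points, interval -3.01 to 3.34, two-sided Fisher's exact p = 0.902). Unbound gaps were longer, which leaves more room for a copy. Per kb of gap there were 0.276 copies in bound and 0.214 in unbound loci, a difference that was not tested. Within 250 bp of the midpoint, AGGTCA was in 11.35% of bound and 9.91% of unbound loci (two-sided Fisher's exact p = 0.461).

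Over 16 gene lists, the largest shares at divergent-promoter summits were those of sterol and lipid genes and of cytosolic ribosomal protein genes. These counts are read against 4.17% of all genes and 11.5% of genes with a partner, and no list was tested. Of 91 cytosolic ribosomal protein genes, 25 (27.5%) had any summit within 500 bp, against 13.0% of all genes. At a divergent-promoter summit were 15 (16.5%), or 26.8% of the 56 with a partner. They included RpS28a (signal 3908) and RpL19 (602.7, opposite CG3776), and the lowest of the 15 was at 313. Of 73 mitochondrial ribosomal protein genes, 9 (12.3%) were, led by mRpL32, mRpS10 and mRpS23, or 15.5% of the 58 with a partner. Of 32 aminoacyl-tRNA synthetase genes, 3 were (9.38%): AlaRS-m, AspRS and MetRS (811.4). They were 13.6% of the 22 with a partner, near the 11.5% of all genes with a partner.

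Of 22 genes of sterol and lipid regulation, 13 (59.1%) had any summit within 500 bp, against 13.0% of all genes. At a divergent-promoter summit were 4 (18.2%). Besides sturkopf, they were Npc2a, a sterol-binding protein gene opposite Got2 (710.6), Seipin, a lipid droplet assembly gene opposite Tsp3A (616.4), and Gpat4, opposite the Hippo pathway effector gene yki (322). Of 27 autophagy genes there were 3: Atg7, which encodes the activating enzyme of autophagy conjugation (456.2), the lipid transfer protein gene Atg2 (385.3) and the SNARE gene Snap29 (334.6). The coat and tethering complexes had 3 of 36 with alphaCOP (1292), Trs20 (406.7) and AP-1sigma (383.2). Of listed genes with a partner, 15% of autophagy genes and 14.3% of coat and tethering genes were at such a summit. Both shares are near the 11.5% of all genes with a partner.

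General transcription factor and Mediator genes had 4 of 49, all 4 of their bound genes, with Taf5, Taf2 (551.6), MED30 (480.5) and MED25 (304.4). Cell cycle regulators had 2 of 34, rux and Cdk12 (826.7), and DNA repair had 2 of 29, PolZ1 (415) and RecQ5 (323.6). The share of listed genes with a partner that were at such a summit was 11.4% for the first of these lists, 12.5% for the second and 10% for the third, near the 11.5% of all genes with a partner.

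The remaining lists had 3 genes or fewer, against 4.17% of all genes and 11.5% of genes with a partner. No low count was tested, and several lists hold few genes with a partner. Oxidative phosphorylation had 3 of 87 (3.45%, near the share of all genes), with ND-ASHI (544.8), ND-51 (378.8) and ND-42 (296.7). The proteasome had 1 of 48 (2.08%), Rpn8 (441.6). DNA replication had 0 of 41, of which 27 have a partner. The chaperonin subunits had 0 of 8, of which 7 have a partner, and the Hox genes 0 of 8, of which none has. Nuclear receptor genes had 0 of 21, and 5 of them have a partner. A summit within 500 bp that was not at a divergent promoter was at 12 of the 21 (57.1%), against 13.0% of all genes with any summit. Rab GTPase genes also had 0 of 23, with 16 having a partner and 5 (21.7%) a summit within 500 bp.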

How the data were processed

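The measurements are ChIP-seq peak lists of 2 replicates (numbers 1 and 3 in the labels). Per the authors' deposited text files, each replicate and both together had peaks called against a control, and a threshold on the irreproducible discovery rate gave the optimal list. Caller, aligner and threshold were not given in the sources used here. Peak signal was deposited by the authors as the caller's value per peak. The deposited −log10 q-value has the same value throughout the optimal list and was not used. Summits were deposited by the authors as an offset from the region start. The labels call the replicates biological and name the same donor line for both.

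Coordinates are dm6 per the labels, with start sites of protein-coding transcripts from Ensembl release 115 (BDGP 6.54) and sequence from genome release 6. Shares have 95% exact (Clopper-Pearson) intervals, and differences Newcombe intervals. Fisher's exact and exact McNemar tests were two-sided over regions, genes or loci, which come from the same 2 replicates, so p-values do not measure variation between embryos. The 21 motifs were adjusted together (Benjamini-Hochberg, threshold 0.05). Calculations used Python 3.11.15, numpy 2.4.6, scipy 1.17.1 and pandas 2.3.3, with figures in matplotlib 3.10.9. The motif tests were checked on simulated windows of equal GC content, a check that does not cover sets differing in GC. Named genes are the 25 summits of highest signal held by a peak of each replicate, 1 per gene pair, up to 3 genes per list, the 5 highest with AGGTCA, and the 2 nearest to each limit. A few others, among them the pairs with several summits, Gpat4, MED25 and the printed sequences, were picked with their values in view. The members, lists and motifs were chosen with earlier results of these data known. A gene that the rule named is not reported here. Of the entries in the gene lists, Insig had no match, and 3 were other names of genes already in the same list. Other start-site windows, gap limits, peak sets, motif windows, flanks and each replicate alone were tried.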

Additional observations from a re-analysis of the deposited data

How the results depend on the processing

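Of 115 alternative values over 15 results, 55 with a test kept their direction and their side of the threshold, and 20 shares or counts without one stayed within the interval of the reported share or close to the reported count. Shares that depend on the rule moved with it. Divergent-promoter summits were 2.97% of the list with windows of 250 bp, 8.60% with 1000 bp and 4.84% with 1 start site per gene, and bound loci 6.76%, 16.75% with those windows, 13.8% with gaps of at most 500 bp and 6.55% among summits above the median signal. Summits between the start sites were 53.9% with windows of 1000 bp, 60.3% with gaps of at most 500 bp and 59.6% with 1 start site per gene. The differences in genes bound with and without a partner stayed called throughout.

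The signal differences changed sign under several settings. Under the 500 bp rule they were -0.27 points for the optimal list, 0.26 for replicate 1 and -4.80 for replicate 3, none called. The replicate 1 difference with windows of 250 bp kept its sign and was called. For the optimal list the differences were 7.22 points (250 bp), 3.12 (1000 bp), 0.18 (gaps of at most 500 bp), 5.48 (above the median signal) and 0.71 (all summits). For replicate 1 they were 9.37 (250 bp, called, exact p = 0.0343), -0.13 (gaps of at most 500 bp), -2.88 (1 start site per gene) and -1.19 (all summits). For replicate 3 they were 3.04 (250 bp), 0.23 (1000 bp) and 3.44 (above the median signal). No other of these was called.

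The gap-length difference was 1.92 points with windows of 1000 bp and -0.20 among gaps of at most 500 bp, neither called. The AGGTCA difference between bound and unbound gaps was 1.64 points with 1000 bp and 0.88 with gaps of at most 500 bp, neither called. Motifs called against single promoters numbered 2 (250 bp), 0 (above the median signal, where TATAAA was at 6.58 points, exact adjusted p = 0.355), 2 (all summits) and 8 (100 bp on each side), and 6 to 8 with 1 replicate left out. Motifs called against flanks numbered 6 with windows of 1000 bp, 5 with 100 bp on each side, 2 with windows of 250 bp, above the median signal or with the other flank, and 2 (without replicate 3) to 4 (without replicate 1). AGGTCA differed from single promoters by 1.91 points with windows of 1000 bp (not called), by -5.31 with 100 bp on each side (called), and by -4.12 (without replicate 3, called) to -3.19 (without replicate 1). Where not stated, the cause was not tested. No paired analysis was possible because there is 1 group. Unknown depth limits all of these.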

Other observations

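Some motif differences that were not called in the optimal list were called under other settings. Against single promoters, TATCGATA (the DREF motif) was in 3.92% of divergent-promoter windows and 1.38% of single-promoter windows without replicate 1 (exact adjusted p = 0.0406). CACACACA, a CA repeat, was in 0.654% at divergent and 4.64% at single promoters without replicate 1 (exact adjusted p = 0.00282), and in 1.02% at divergent and 4.22% at single promoters without replicate 3 (exact adjusted p = 0.0304). In the optimal list it was in 3 of 285 divergent-promoter windows and 55 of 1253 single-promoter windows (exact adjusted p = 0.0544), and with start-site windows of 250 bp in 0 of 162 divergent-promoter windows and 42 of 807 single-promoter windows (exact adjusted p = 0.00564). In optimal-list windows above 32.7% GC, the CA repeat was in 2.22% at divergent and 6.01% at single promoters (Fisher's exact p = 0.102). In the other windows it was in 0 of 150 at divergent and 1 of 355 at single promoters.

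With windows of 100 bp on each side, CGATA was in 40.0% at divergent and 28.2% at single promoters (exact adjusted p = 0.000619), and Ohler 7 in 19.3% at divergent and 8.54% at single promoters (exact adjusted p = 1.247e-05). GAGAGAG, the GAGA factor motif, went the other way, with 1.40% at divergent and 8.30% at single promoters (exact adjusted p = 4.421e-05). Ohler 7 was also split by GC content in the 101-bp windows of the optimal list. Above 32.7% GC it was in 13.3% at divergent and 4.57% at single promoters (Fisher's exact p = 0.000235, not adjusted). At or under that GC content it was in 2.0% at divergent and 2.54% at single promoters.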
